A study of Mus musculus with 32 samples.

Results

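Genes of cholesterol synthesis, sterol transport and cholesterol efflux were followed in cultured mouse cardiac fibroblasts, the matrix-producing cells of the heart. The set holds 27 genes, looked up by symbol among the 55414 gene IDs of the count table. It was chosen for the known roles of its genes, with earlier results of these data known. Counts of calls among its members are therefore no independent test. It comprises 18 synthesis enzymes, 4 regulators (Srebf1, Srebf2, Scap, Insig1), 2 sterol transporters (Stard4, Npc1) and 3 genes of efflux and receptor turnover (Abca1, Abcg1, Mylip). All 27 passed the filter on low counts and were among the 16760 genes tested. Poly(A) RNA was sequenced from 32 libraries in 8 groups of 4. Every group had the genotype C57BL/6J_Pkm2fl/fl, so the LacZ controls carried the floxed alleles too. The cells received a vector with iCre, a Cre recombinase that removes floxed sequence, or a LacZ control vector. For each vector 4 libraries are titled SS, a name the labels do not spell out, and 4 each received bFGF (20 ng/ml, titled FGF), IL-1b (15 ng/ml, titled ILB) or TGFb (10 ng/ml, titled TGFB) for 24 h under serum starvation. Cells were at passage 1 and had been grown in medium that already held bFGF at 20 ng/ml and 10% serum. The labels do not say whether a library number stands for a mouse, an isolation or a day, so a p-value here reflects only the spread between these samples, which may be technical. Groups follow the sample titles, since in the 16 LacZ libraries the tag for treatment does not match the title. The protocol also names another floxed strain, TAK1fl/fl, and TNFa as a stimulus, neither of which a title mentions.

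Cells make cholesterol from acetyl-CoA through mevalonate, isoprenoid and squalene intermediates, and then through a series of sterols. The transcription factor SREBP-2, product of Srebf2, drives most of these enzymes when membrane sterol is low; SCAP carries SREBP to the Golgi for cleavage, and INSIG proteins hold that complex back when sterol is plentiful. The oxysterol-sensing LXR receptors act on the other arm and switch on the exporters ABCA1 and ABCG1 and the ubiquitin ligase MYLIP, which removes lipoprotein receptors from the cell surface.

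The libraries held between 20736203 and 34995038 counts (median 26362614.5). Fibroblast markers were high, with Col1a1, a collagen chain, between 7341 and 11270 CPM (counts scaled to library size, here with TMM factors) in LacZ SS. Leukocyte and macrophage markers were present too. Their 10 genes summed to 67.8 to 539 CPM in LacZ SS, and the order of the numbers, 3 above 1 above 2 above 4, was the same in all 8 groups. Pmepa1, a TGFb target, was higher in the LacZ TGFB group than in LacZ SS (log2 2.53, edgeR adjusted p = 3.2e-11), Nos2 in LacZ ILB (log2 9.19, adjusted p = 1.5e-18) and Spry4 in LacZ FGF (log2 2.99, adjusted p = 0.00024), as the titles name them. Counts per gene do not separate the Pkm isoforms, so they do not check the isoform switch that the study aimed at. Pkm as a whole lay between 382 and 777 CPM in iCre SS and between 595 and 1141 CPM in LacZ SS.

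The stretches before the transcription start of 4 members are printed: Hmgcs1, Abca1 and Srebf1 because they hold a sterol element or an LXR repeat, and Mvd as an enzyme with CCAAT boxes alone. RefSeq start windows (GRCm38.p6, from 250 bases before to 50 after each start) were found for 21 of the 27 members, in 27 windows. Only the 250 bases before the start are printed, each 5′ to 3′ on the gene's own strand, with matched motifs in capitals. They are chr13:119690101-119690350 on the plus strand for Hmgcs1, and on the minus strand chr8:122443423-122443672 for Mvd, chr4:53159896-53160145 for Abca1 and chr11:60210472-60210721 for the most downstream of the 3 Srebf1 starts in the table, which lies inside the annotated span of the gene.
Hmgcs1: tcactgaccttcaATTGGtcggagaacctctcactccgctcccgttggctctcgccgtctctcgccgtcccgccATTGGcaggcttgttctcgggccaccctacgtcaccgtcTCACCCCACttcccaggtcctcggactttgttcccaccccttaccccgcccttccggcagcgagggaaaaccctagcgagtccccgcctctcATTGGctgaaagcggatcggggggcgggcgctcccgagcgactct
Mvd: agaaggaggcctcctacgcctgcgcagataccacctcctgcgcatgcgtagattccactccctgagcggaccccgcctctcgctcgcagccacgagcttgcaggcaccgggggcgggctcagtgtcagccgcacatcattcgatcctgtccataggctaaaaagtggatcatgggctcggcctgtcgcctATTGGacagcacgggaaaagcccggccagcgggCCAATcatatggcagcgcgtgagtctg
Abca1: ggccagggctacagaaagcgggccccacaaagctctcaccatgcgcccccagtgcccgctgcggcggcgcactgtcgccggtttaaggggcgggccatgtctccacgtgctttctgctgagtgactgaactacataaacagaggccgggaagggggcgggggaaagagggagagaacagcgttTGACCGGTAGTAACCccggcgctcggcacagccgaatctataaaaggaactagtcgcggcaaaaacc
Srebf1: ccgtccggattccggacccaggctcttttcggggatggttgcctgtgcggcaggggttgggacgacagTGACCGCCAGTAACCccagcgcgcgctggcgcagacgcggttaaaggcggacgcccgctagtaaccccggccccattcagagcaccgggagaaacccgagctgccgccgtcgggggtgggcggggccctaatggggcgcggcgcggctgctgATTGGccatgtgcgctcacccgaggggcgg
The sterol regulatory element core TCACNCCAC (N is any base, both strands searched) occurred in 1.24% of 32851 windows. Hmgcs1 was the only member gene with it, 137 to 129 bases before the start, as TCACCCCAC. The CCAAT box (ATTGG on the other strand) is read by the factor NF-Y that acts beside SREBP. It occurred in 37.4% of all windows and in 19 of the 27 member windows. Counted by gene, with any window enough, it was in 18 of the 21 member genes and 14 of the 15 synthesis genes found. Hmgcs1 carried 3 such boxes in the printed stretch and Mvd carried 2. The LXR direct repeat (GGTNA, then 5 bases, then GGTNA again, both strands searched) occurred in 0.718% of windows, and among member genes only in Abca1, 67 to 53 bases before the start, and in Srebf1, 182 to 168 bases before its most downstream start. Both are printed in the reverse direction, as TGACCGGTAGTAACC and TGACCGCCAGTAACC. A match is a description of letters and no evidence of binding in these cells.

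TGFb raised almost the whole synthesis pathway and lowered the exporter Abca1. In LacZ cells 17 of 18 synthesis enzymes were higher with TGFb than in SS, in iCre cells 18 of 18. Their median log2 change was 2.10 (range 0.99 to 3.12) in LacZ and 1.89 (0.82 to 3.28) in iCre, against -0.06 and -0.05 over all tested genes. All comparisons of a stimulus with SS in one vector share the SS libraries of that vector. Of all 27 members 21 were called higher and 2 lower in LacZ, and 21 higher and 1 lower in iCre. TGFb changed a large part of the transcriptome: 23.4% of all tested genes were called higher and 22.9% lower in LacZ, 20.2% and 18.1% in iCre. The members' share of higher calls was above those percentages. Within each library number every one of the 18 enzymes was higher with TGFb in all 8 comparisons, and all 3 genes of the efflux group were lower in all 8. The share of all tested genes that moved in the same direction in all 8 was not counted. Because the libraries were scaled by TMM, the median gene moved by -0.06 in LacZ; scaling by total counts alone put it at -0.26 in LacZ and -0.27 in iCre, with 2553 genes called higher and 5078 lower in LacZ and 1918 and 4630 in iCre, against 3925 and 3834, and 3378 and 3039, with TMM. The synthesis medians were then 1.87 and 1.64.

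**Figure D1:**
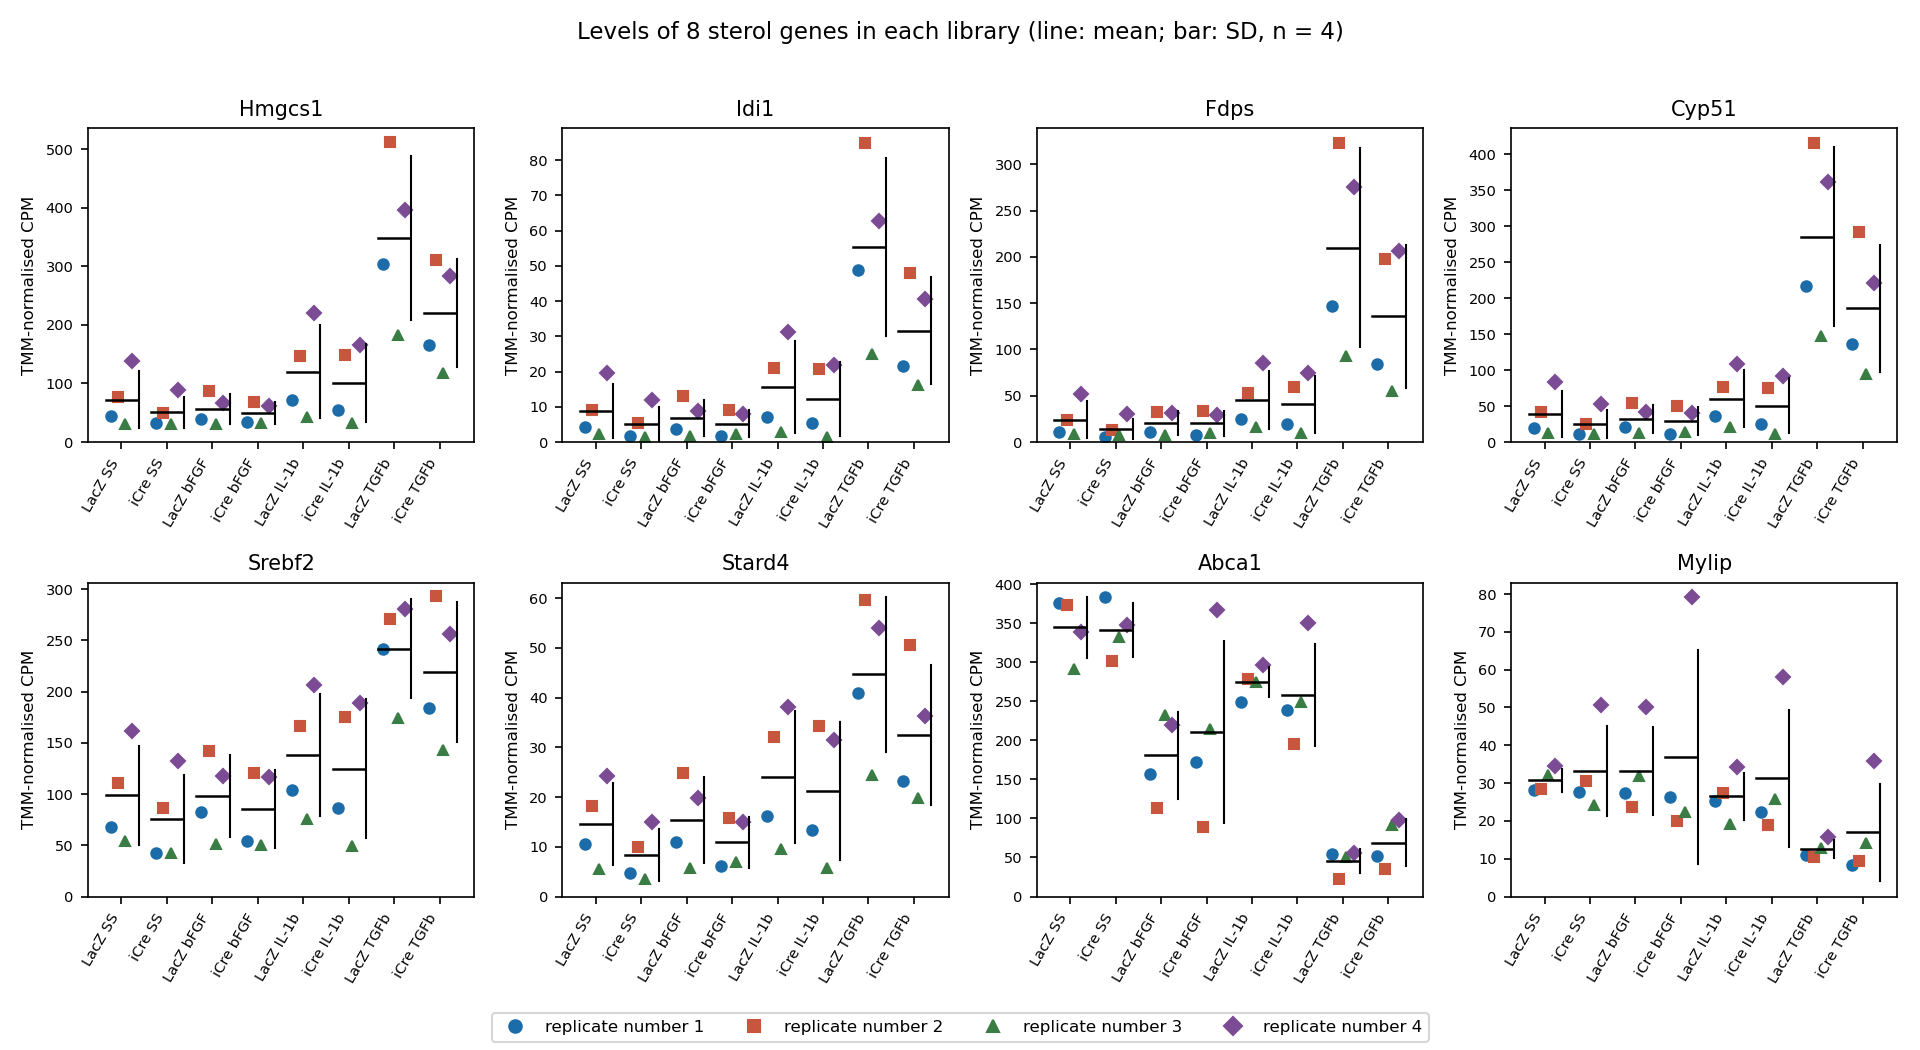
CPM after TMM scaling (linear axes from 0) of 8 members in each of the 32 libraries, by vector and condition; symbols give the library number, the line the mean and the bar the SD over 4 libraries. Hmgcs1, Idi1, Fdps, Cyp51, Srebf2 and Stard4 stand highest with TGFb, Abca1 and Mylip lowest.

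Hmgcs1, which makes the HMG-CoA that enters the mevalonate pathway, had 44.3, 76.5, 30.3 and 138 CPM in LacZ SS libraries 1 to 4 and 303, 512, 183 and 395 CPM in LacZ TGFB. In iCre the values were 33.1, 49.4, 30.8 and 88.6 CPM in SS and 166, 311, 118 and 284 CPM with TGFb. The groups did not overlap in either vector, and number 3 was the lowest library in each of the 4 groups. The increase was 4.81-fold in LacZ (log2 2.27 ± 0.57 SE, adjusted p = 0.00204) and 4.35-fold in iCre (log2 2.12 ± 0.57, adjusted p = 0.00433). Among all tested genes 21.1% were higher without overlap of the groups in LacZ and 16.4% in iCre; of the 18 enzymes 15 did not overlap in LacZ and 11 in iCre, all of them higher.

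Fdps, which condenses isoprene units into farnesyl pyrophosphate, showed the largest change of the 27 members. Its level was 11, 24.3, 8.69 and 52.1 CPM in LacZ SS and 147, 323, 92.9 and 276 CPM in LacZ TGFB. In iCre it was 5.54, 12.9, 7.25 and 30.1 CPM in SS and 84.3, 198, 55.2 and 206 CPM with TGFb. Even the lowest TGFb library lay above the highest SS library in both vectors. The fold was 8.72 in LacZ (log2 3.12 ± 0.77, adjusted p = 0.00165) and 9.69 in iCre (log2 3.28 ± 0.78, adjusted p = 0.00156). Idi1, the isomerase that supplies its substrate, went from 4.17, 9.17, 2.39 and 19.6 CPM to 48.8, 84.9, 24.8 and 62.7 CPM in LacZ. Number 4 was by far the highest SS library and still lay below the lowest TGFb library, and the 6.24-fold increase had an SE of 0.88 on the log2 scale (adjusted p = 0.0157). The other enzymes up to mevalonate pyrophosphate decarboxylase, Acat2, Mvk, Pmvk and Mvd, rose by log2 1.57 to 2.14 in LacZ and 1.26 to 1.68 in iCre, with adjusted p between 0.000566 and 0.0392 over both vectors.

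Among the sterol steps, Cyp51, the lanosterol demethylase, had 19.5, 41.2, 12.1 and 82.9 CPM in LacZ SS and 217, 416, 148 and 361 CPM in LacZ TGFB, without overlap. It rose 7.33-fold in LacZ (log2 2.87 ± 0.73, adjusted p = 0.00226) and 7.36-fold in iCre (log2 2.88 ± 0.74, adjusted p = 0.00287). Msmo1 and Nsdhl, which help remove methyl groups from the sterol ring, rose by log2 2.68 and 2.31 in LacZ and by 2.53 and 2.24 in iCre. Ebp, the sterol isomerase, had the smallest change of the enzymes but one of the most even. It stood at 13.7, 12.7, 12.9 and 11.6 CPM in LacZ SS and at 21, 35.2, 18.9 and 25.9 CPM with TGFb, a 1.98-fold rise (log2 0.99 ± 0.18, adjusted p = 5.03e-05). Sc5d, the lathosterol desaturase, rose 2.42-fold in LacZ (log2 1.28 ± 0.25, adjusted p = 0.000166), and Dhcr7, which carries out a last reduction to cholesterol, 2.54-fold (log2 1.34 ± 0.42, adjusted p = 0.0101).

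Among the squalene steps, Sqle, the squalene epoxidase, had 15.7, 39.1, 6.76 and 72.1 CPM in LacZ SS and 132, 221, 80.6 and 204 CPM with TGFb. Its lowest TGFb library, number 3, was only just above its highest SS library, number 4, and the adjusted p was 0.0258 for a 4.77-fold change. For Fdft1, the squalene synthase, these same libraries crossed, with 61 CPM in TGFB number 3 and 66.8 CPM in SS number 4 (log2 2.05 ± 0.79, adjusted p = 0.0349). Tm7sf2, a sterol reductase at low level, was the enzyme that missed the threshold in LacZ: 2.04, 3.56, 2.31 and 9.87 CPM in SS against 8.8, 19, 5.89 and 26.9 CPM with TGFb (log2 1.76 ± 0.86, adjusted p = 0.0932). Compared within library numbers, in a fit with the number as a block, its change was log2 1.86 ± 0.29 (adjusted p = 6.19e-06). In that fit all 18 enzymes were called higher in both vectors, at a background of 28.1% of tested genes in LacZ and 25.1% in iCre. The calls in LacZ for Fdft1 and Sqle, as for Srebf2 and Stard4, were lost without the filter on low counts (adjusted p 0.0824, 0.0629, 0.0524 and 0.0592) and with total-count scaling (0.0767, 0.0543, 0.0774 and 0.0657). Leaving out library 1 or 3 of LacZ SS also ended each of them, with an adjusted p of 0.0724 to 0.102, and leaving out library 1 of LacZ SS ended those of Idi1 (0.0531) and Insig1 (0.0552). The calls of Fdft1 and Sqle were lost without library 2 of LacZ SS too (0.0774 and 0.0514). Without library 2 or 4 of LacZ TGFB those of Fdft1, Sqle and Stard4 were lost (0.05003 to 0.0807). In iCre the calls of Acat2, Fdft1, Sqle, Tm7sf2 and Dhcr7 were lost without the filter (adjusted p 0.0622 to 0.104), with total-count scaling (0.0532 to 0.146) and without library 1, 2 or 3 of iCre SS (0.0525 to 0.123), and, among them, those of Acat2, Fdft1 and Dhcr7 also without library 2 or 4 of iCre TGFB (0.0857 to 0.159) and that of Sqle without library 2 (0.065). The call of Idi1 in iCre was lost without the filter (0.0521), without library 1 or 3 of SS (0.067 and 0.0629) and without library 2 of TGFB (0.0531). That of Pmvk was lost with total-count scaling (0.0627), without library 1 of SS (0.0528) and without library 4 of TGFB (0.0568). Tm7sf2 in iCre rested most on 1 library, TGFB number 4 at 55.8 CPM beside 4.53, 13.2 and 3.17 CPM, and had an adjusted p of 0.409 without it.

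Of the regulators, Srebf2 rose together with the enzymes. It had 67.8, 111, 54.5 and 162 CPM in LacZ SS and 242, 270, 174 and 281 CPM with TGFb, so that every TGFb library was above every SS library (2.45-fold, log2 1.29 ± 0.46, adjusted p = 0.0219). In iCre the rise was 2.88-fold (log2 1.53 ± 0.46, adjusted p = 0.00977). Srebf1, whose product favours fatty acid synthesis, rose less and with little spread, from 82.6 to 108 CPM in LacZ SS to 138 to 164 CPM with TGFb (1.65-fold, log2 0.72 ± 0.12, adjusted p = 1.74e-05; in iCre 1.73-fold, log2 0.79 ± 0.12, adjusted p = 9.35e-06). The counts do not separate the products of its different starts. Insig1, itself a target of SREBP, had 31.2, 54.8, 28.4 and 98.1 CPM in LacZ SS and 157, 230, 122 and 172 CPM with TGFb (log2 1.68 ± 0.55, adjusted p = 0.0142). In iCre its TGFb values were lower, 93.9, 153, 68.7 and 108 CPM, and overlapped with SS, where number 4 had 98.3 CPM (log2 1.09 ± 0.54, adjusted p = 0.117; with the number as a block 1.30 ± 0.22, adjusted p = 3.59e-05). Scap went the other way by a small amount: 112 to 133 CPM in LacZ SS and 87.4 to 105 CPM with TGFb, without overlap (log2 -0.29 ± 0.12, adjusted p = 0.0529; with the block -0.28 ± 0.09, adjusted p = 0.00985).

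The transport genes parted. Stard4, a soluble sterol carrier, had 10.5, 18.3, 5.6 and 24.3 CPM in LacZ SS and 40.9, 59.6, 24.4 and 53.9 CPM with TGFb, where number 3 of TGFB and number 4 of SS were almost level. It rose 3.04-fold in LacZ (log2 1.61 ± 0.58, adjusted p = 0.0251) and 3.88-fold in iCre (log2 1.95 ± 0.59, adjusted p = 0.00994). Npc1, which moves lipoprotein-derived cholesterol out of lysosomes, stayed between 52.2 and 92.1 CPM in the 8 TGFb libraries and between 75.4 and 88.6 CPM in the 8 SS libraries. Its log2 change was -0.24 ± 0.12 in LacZ (adjusted p = 0.114) and -0.09 ± 0.12 in iCre (adjusted p = 0.599).

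On the efflux side Abca1, the exporter that loads cholesterol onto apolipoprotein A-I, fell furthest. It had 375, 373, 292 and 339 CPM in LacZ SS and 54.4, 22.9, 50.1 and 55.7 CPM with TGFb. In iCre it had 384, 301, 332 and 348 CPM in SS and 52.1, 34.8, 91.7 and 97.8 CPM with TGFb. SS and TGFb libraries were far apart in both vectors, and number 2 was the lowest TGFb library in each. The change was to 0.133 of the SS level in LacZ (log2 -2.91 ± 0.35, adjusted p = 2.91e-07) and to 0.203 in iCre (log2 -2.30 ± 0.34, adjusted p = 9.91e-06). Mylip had 28.1, 28.4, 32.1 and 34.4 CPM in LacZ SS and 10.9, 10.5, 12.9 and 15.6 CPM with TGFb (log2 -1.30 ± 0.44, adjusted p = 0.0174). In iCre library 4 stood apart, with 35.9 CPM under TGFb against 8.42, 9.38 and 14.1 CPM in the other 3, and the groups overlapped (log2 -0.97 ± 0.43, adjusted p = 0.0798; with the block -1.11 ± 0.24, adjusted p = 0.000516). Abcg1, an exporter to lipoprotein particles that macrophages also express strongly, had 11.6, 9.5, 17.6 and 16.6 CPM in LacZ SS and 9.87, 4.53, 15.2 and 8.32 CPM with TGFb. The groups overlapped and the change did not pass (log2 -0.54 ± 0.46, adjusted p = 0.35; iCre -0.39 ± 0.46, adjusted p = 0.529).

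The balance between both arms shows in the summed levels. The 18 synthesis enzymes together had 268, 433, 208 and 758 CPM in LacZ SS libraries 1 to 4 and 1552, 2782, 1016 and 2401 CPM with TGFb; in iCre the sums were 210, 313, 206 and 539 CPM and 921, 1877, 650 and 1877 CPM. The 3 efflux genes summed to 415, 411, 341 and 390 CPM in LacZ SS and to 75.1, 38, 78.3 and 79.7 CPM with TGFb. Every TGFb library thus had more synthesis and less summed efflux RNA than any SS library of the same vector. Abca1 made up most of the efflux sum in each of these libraries, so the sum mainly follows that gene. Abcg1 by itself did not pass in either vector. The leukocyte markers summed to 189, 91.4, 366 and 39.4 CPM in LacZ TGFB against 360, 149, 539 and 67.8 CPM in LacZ SS; 0 of the 10 passed the test in LacZ (edgeR, DESeq2 or an unadjusted p of 0.05), with log2 changes from -1.15 to 0.10, while 7 of the 10 were called lower in each vector with the number as a block, where 30.3% of all tested genes were called lower in LacZ and 26.5% in iCre. Markers of other cells differed as well. The summed endothelial markers (5 genes) ran from 16 to 34 CPM in LacZ SS and from 5.6 to 10.6 CPM with TGFb, and the cardiomyocyte markers (4 genes) from 43.7 to 125 CPM and from 8.88 to 35.2 CPM, both without overlap. The mural cell markers (4 genes) had means of 447 ± 209 and 123 ± 64.5 CPM (SD, n = 4), with overlap. The fibroblast markers (8 genes) had means of 26544 ± 4383 and 37212 ± 5201 CPM; of these Col1a1 was called higher and Dcn, Pdgfra, Lum and Tcf21 lower in LacZ. In SS the library order of the leukocyte markers was the reverse of that of the synthesis sum. Number 4 was highest for synthesis and lowest for leukocyte markers, and number 3 the opposite. In bulk RNA fewer cells of a type and less RNA per cell cannot be told apart, and the part of these other cells in the sterol gene values was not tested. Across numbers the synthesis sum in LacZ SS differed more, from 208 to 758 CPM, than the efflux sum, from 341 to 415 CPM.

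**Figure D2:**
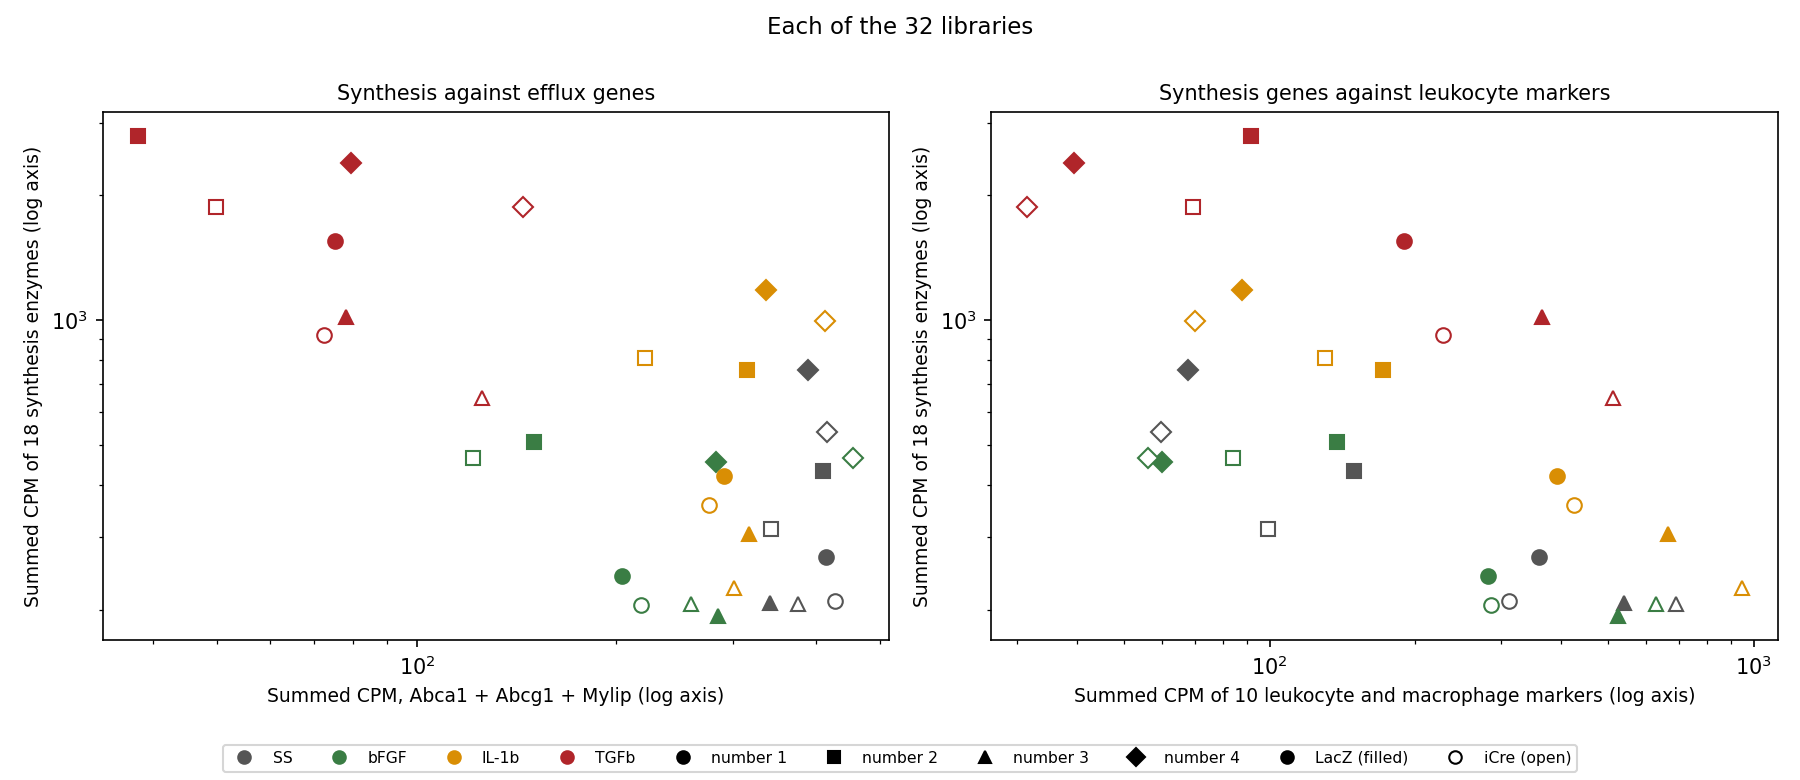
Each point is 1 of the 32 libraries; both axes of both panels are log axes of summed CPM after TMM scaling. The left panel sets the 18 synthesis enzymes against Abca1, Abcg1 and Mylip, where the 8 TGFb libraries lie at upper left; the right panel sets the same enzymes against 10 leukocyte and macrophage markers, where number 4 and number 2 lie to the left of numbers 1 and 3 in each group.

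Levels per length of exon put the change in proportion. The length is that of all annotated exons of a gene merged, so ranks between genes depend on the annotation. In LacZ SS the member with the highest mean was Abca1 at 33.3 ± 3.77 CPM per kb (SD, n = 4), followed by Insig1 at 17.2 ± 10.4, Srebf1 at 16.1 ± 2.11, Scap at 16 ± 1.23 and Hmgcs1 at 15.8 ± 10.5 CPM per kb. The last 4 do not differ beyond their spread. With TGFb the order was Hmgcs1 at 75.8 ± 30.4, Cyp51 at 64.7 ± 28.2, Insig1 at 55 ± 14.6 and Fdps at 49.9 ± 25.6 CPM per kb, neighbours again within their spread. Abca1 was then at 4.42 ± 1.49 CPM per kb, between the synthesis enzymes Tm7sf2 at 3.44 ± 2.19 and Dhcr7 at 5.19 ± 1.46 CPM per kb and within the spread of both. Tm7sf2 was also the lowest of the 27 members in LacZ SS, at 1.01 ± 0.836 CPM per kb.

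**Figure D3:**
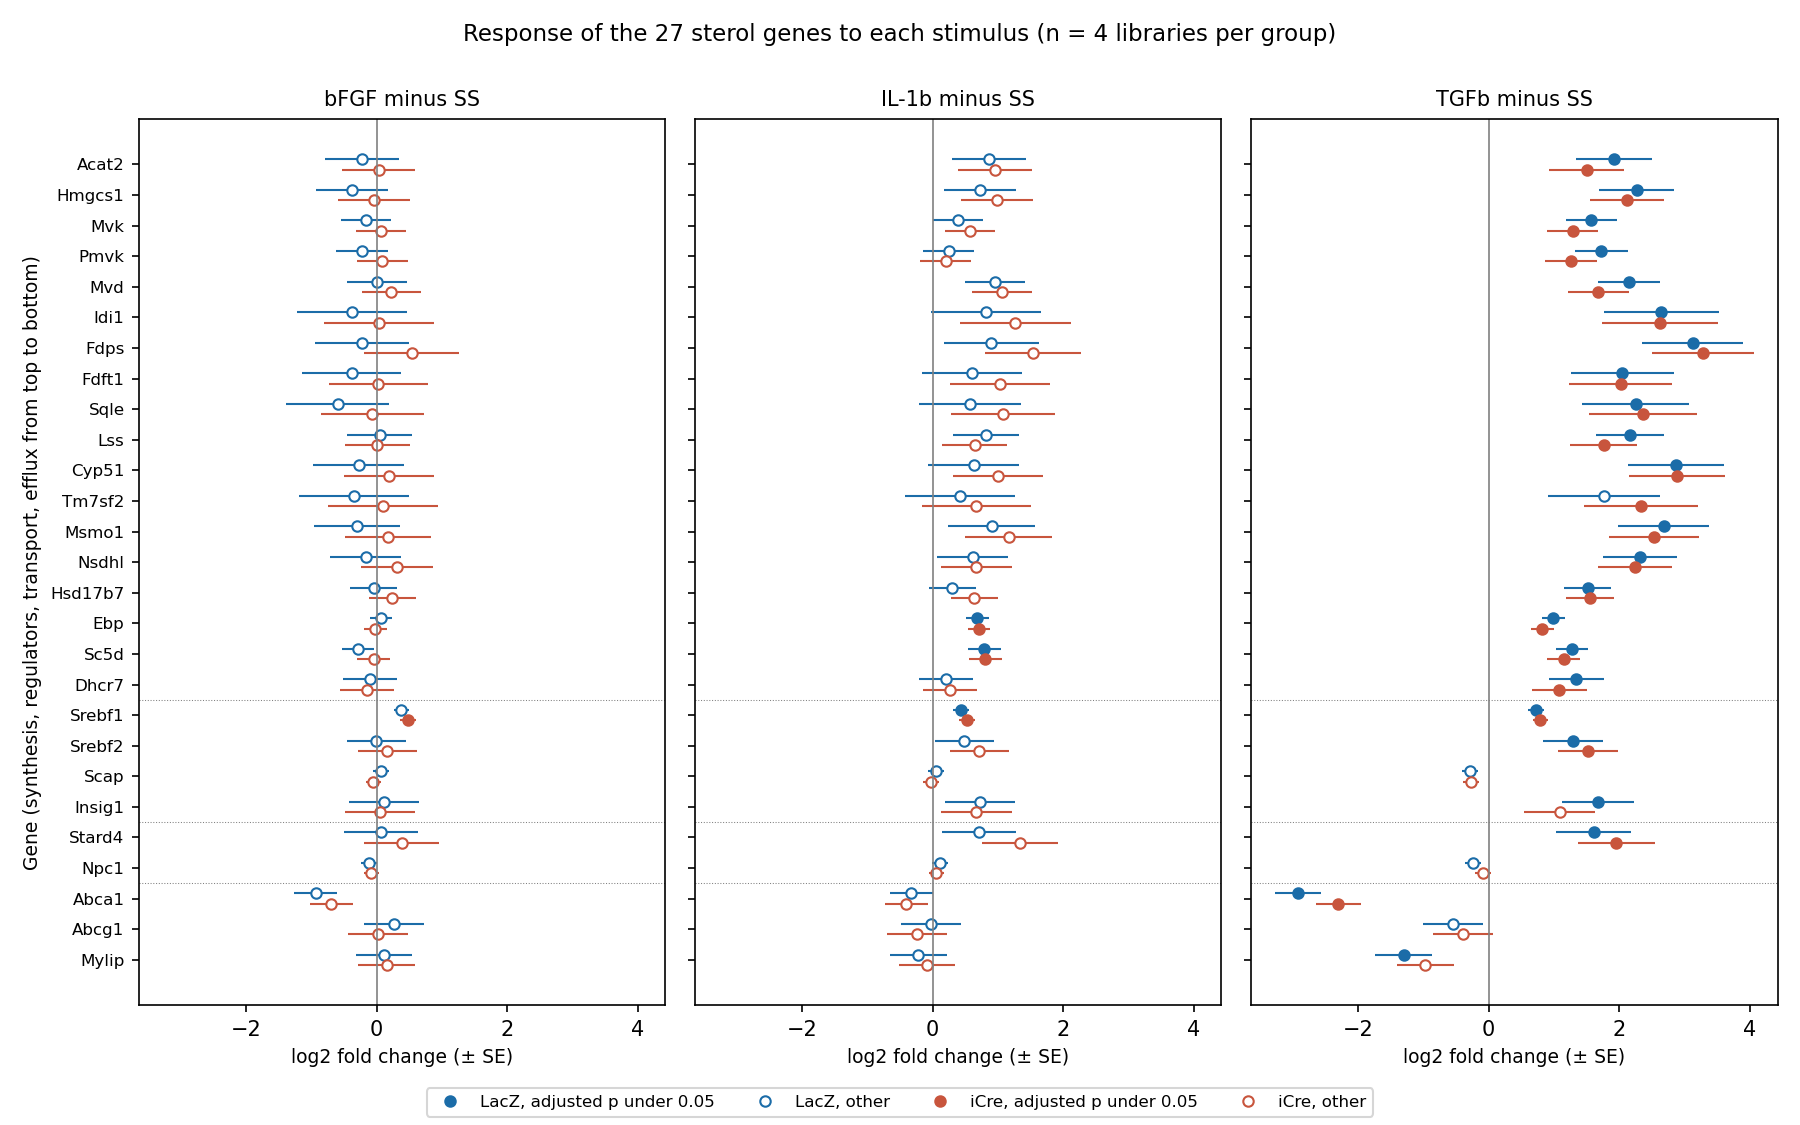
Log2 fold change against SS (points, with bars of 1 SE) of the 27 members for each stimulus, in LacZ and iCre, 4 libraries per group; filled points passed an edgeR adjusted p of 0.05. TGFb moves the synthesis enzymes to the right and Abca1 and Mylip to the left, IL-1b moves the enzymes less far and bFGF leaves them near 0.

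Under IL-1b all 18 synthesis enzymes had fold changes above 0 in both vectors, and few passed the test. Ebp, Sc5d and Srebf1 were called higher in both vectors and no member was called lower, 3 of 27 in each. Of all tested genes 11.1% were called higher in LacZ and 8.88% in iCre, so the count alone is near the background. Scaling by total counts turned the balance of all calls to 1375 higher and 1625 lower in LacZ and 1106 and 1251 in iCre, from 1853 and 1363, and 1488 and 1146, with TMM. The synthesis median was 0.66 in LacZ and 0.88 in iCre against -0.02 over all tested genes in each. Sc5d had 35.9, 44.5, 31 and 52.5 CPM in LacZ SS and 63.9, 78, 55.4 and 86.5 CPM with IL-1b. The groups did not overlap (1.73-fold, log2 0.79 ± 0.25, adjusted p = 0.025), though the call was lost in LacZ and in iCre with total-count scaling (adjusted p 0.0916 and 0.086), in iCre without the filter on low counts (0.0511), and in each vector without SS library 1, 2 or 3 or IL-1b library 2 or 4 (0.0517 to 0.0864). Ebp reached 20.3, 22.1, 16.2 and 23.4 CPM, also clear of SS (log2 0.69 ± 0.18, adjusted p = 0.0061). Srebf1 had 126, 125, 122 and 116 CPM with IL-1b against 85.3, 86.1, 108 and 82.6 CPM in SS (log2 0.43 ± 0.12, adjusted p = 0.00966).

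For most other enzymes the spread between numbers was as large as the IL-1b difference. Fdps had 25.4, 53, 16 and 85.5 CPM with IL-1b against 11, 24.3, 8.69 and 52.1 CPM in LacZ SS. Each library was above the SS library of its own number, while the groups overlapped (log2 0.90 ± 0.72, adjusted p = 0.431). With the number as a block the same difference was log2 0.96 ± 0.23 (adjusted p = 0.00219). That fit called 16 members higher in LacZ and 17 in iCre, 12 and 13 of them enzymes, and none lower, where 16.8% and 15.0% of all tested genes were called higher. Stard4 was the strongest addition in iCre: 4.73, 10, 3.62 and 15 CPM in SS became 13.3, 34.3, 5.82 and 31.5 CPM (log2 1.34 ± 0.58, adjusted p = 0.12; with the block 1.27 ± 0.21, adjusted p = 5.56e-05). Over both vectors 14 of the 27 members were higher with IL-1b in 8 of 8 comparisons within numbers: Acat2, Hmgcs1, Mvd, Idi1, Fdps, Fdft1, Sqle, Msmo1, Ebp, Sc5d, Srebf1, Srebf2, Insig1 and Stard4. Efflux genes did not pass under IL-1b in either fit: Abca1 stood at 249, 278, 275 and 297 CPM in LacZ (log2 -0.33 ± 0.33, adjusted p = 0.549) and Mylip at 25.2, 27.3, 19.2 and 34.1 CPM (log2 -0.22 ± 0.43, adjusted p = 0.789).

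With bFGF the direction of the enzymes differed between library numbers. Their medians by number 1 to 4 were -0.15, 0.29, -0.18 and -0.66 in LacZ, with 12, 3, 13 and 17 of 18 below their SS library, and 0.05, 0.50, -0.02 and -0.07 in iCre, with 8, 2, 10 and 13 below. Number 2 was the one in which most enzymes were higher in both vectors. In the fit the median was -0.23 in LacZ and 0.05 in iCre, and 0 of 18 passed in either vector with edgeR, DESeq2 or at an unadjusted p of 0.05. Of the 27 members 0 were called in LacZ and 1, Srebf1, in iCre, at a background of 2.56% and 2.2% of tested genes. Srebf1 had 82.2, 78.1, 86.9 and 74.2 CPM in iCre SS and 118, 132, 114 and 84.2 CPM with bFGF (log2 0.48 ± 0.12, adjusted p = 0.0307). Library 4 reached into the SS range there. Leaving out library 1, 2 or 3 of iCre FGF, or 1, 2 or 4 of iCre SS, ended the call, with an adjusted p of 0.0592 to 0.149. In LacZ the values were 126, 126, 123 and 95.9 CPM, again with number 4 lowest (log2 0.38 ± 0.12, adjusted p = 0.0827; DESeq2 adjusted p = 0.0344; with the block 0.37 ± 0.10, adjusted p = 0.0117). Abca1 was lower without passing: 157, 113, 232 and 220 CPM with bFGF in LacZ, all below the 292 to 375 CPM of SS (log2 -0.93 ± 0.33, adjusted p = 0.134; with the block -1.02 ± 0.25, adjusted p = 0.01). In iCre 3 libraries were as low, 172, 89.4 and 214 CPM, and number 4 was at 367 CPM (log2 -0.70 ± 0.33, adjusted p = 0.289; with the block -0.82 ± 0.25, adjusted p = 0.0373). With the block Srebf1 and Abca1 were the 2 members called in each vector, where 12.2% of tested genes were called in LacZ and 11.4% in iCre.

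The stimuli were also set against each other, averaged over both vectors. TGFb exceeded IL-1b for 14 of 18 enzymes and for Srebf1 and Srebf2, and was below it for Scap, Npc1, Abca1 and Mylip. Of these calls, those of Mvd, Idi1, Sqle, Tm7sf2, Srebf1 and Srebf2 were lost under total-count scaling (adjusted p 0.0627 to 0.128), where Srebf1 differed by log2 0.14, and those of Idi1, Sqle, Tm7sf2 and Srebf2 without the filter on low counts (0.0654 to 0.0844). Leaving out single libraries ended the calls of Mvd, Idi1, Sqle, Tm7sf2 and Srebf2, most widely for Tm7sf2, which had log2 0.77 (adjusted p = 0.249) without iCre TGFB library 4. Over all tested genes 26.5% were called higher and 24.1% lower. Under total-count scaling the split of all calls was 2926 higher and 5047 lower instead of 4443 and 4034, and the median gene lay at -0.14. Cyp51 differed most of the enzymes, with a mean of 236 CPM under TGFb and 55.4 CPM under IL-1b (log2 2.06 ± 0.50, adjusted p = 0.00122). Ebp and Sc5d were close, at 24 against 20.8 CPM (log2 0.21 ± 0.12, adjusted p = 0.164) and 88.6 against 66.2 CPM (log2 0.41 ± 0.17, adjusted p = 0.0506; with the block 0.39 ± 0.08, adjusted p = 9.32e-05). With the block Acat2, Fdft1, Insig1 and Stard4 were called higher too. Abca1 was at 57.4 CPM under TGFb and 266 CPM under IL-1b (log2 -2.24 ± 0.24, adjusted p = 2.06e-08), the only member whose 8 libraries of each kind did not overlap, as 18.9% of tested genes did not. Against bFGF, TGFb was higher for all 18 enzymes, the regulators except Scap, and Stard4, and lower for Scap, Abca1 and Mylip, where 26.1% of tested genes were called higher and 26.0% lower. Total-count scaling gave 2515 higher and 6180 lower calls there, against 4372 and 4358. The call of Srebf1 against bFGF was lost under that scaling (log2 0.14, edgeR adjusted p = 0.0603). IL-1b exceeded bFGF for Hmgcs1, Mvd, Ebp and Sc5d, 4 of 27 members at a background of 13% higher, and for 20 with the block at 19.2%. The calls of Hmgcs1 and Mvd were lost without the filter (adjusted p 0.101 and 0.0927), with total-count scaling (0.0753 and 0.0926), without the libraries of number 4 (0.186 and 0.0693) and without library 1 or 3 of FGF or 2 or 4 of ILB in either vector (0.0669 to 0.13), and that of Hmgcs1 also without LacZ FGF library 4 (0.0508). Total-count scaling gave 1604 higher and 2563 lower calls over all genes, against 2187 and 2157. Sc5d had a mean of 66.2 CPM with IL-1b and 33.9 CPM with bFGF (log2 0.96 ± 0.18, adjusted p = 0.000147).

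Other genes of the pathway, 45 in 5 lists, moved less uniformly under TGFb. In LacZ 17 were called higher and 7 lower, with a median log2 of 0.09, and in iCre 17 and 6, with a median of 0.08. The shares to read these and the following counts against are those of all tested genes, 23.4% higher and 22.9% lower in LacZ and 20.2% and 18.1% in iCre. The fatty acid synthesis targets of SREBP were the list nearest to the sterol enzymes. In LacZ 8 of 10 were higher and 0 lower (median 1.07), in iCre 7 of 10 (median 0.94), led by Acaca, the acetyl-CoA carboxylase (log2 1.22 ± 0.20, adjusted p = 1.37e-05 in LacZ), Fasn, the fatty acid synthase (1.16 ± 0.21, adjusted p = 6.28e-05), and Scd1, a desaturase (1.13 ± 0.21, adjusted p = 8.47e-05). Of 14 genes of esterification, hydrolysis and transport, 3 were higher and 2 lower in each vector. They included Tmem97, a sterol-regulated membrane protein (log2 2.22 ± 0.22, adjusted p = 1.66e-08), Lipa, the lysosomal cholesteryl ester hydrolase (-1.12 ± 0.14, adjusted p = 7.3e-07), and Osbp, an oxysterol-binding transfer protein (0.59 ± 0.09, adjusted p = 4.26e-06). Of 8 LXR and oxysterol genes 1 was higher and 3 lower in LacZ, among them the LXR partner Rxra (-0.71 ± 0.10, adjusted p = 2.2e-06), Cyp27a1, a sterol hydroxylase (-1.75 ± 0.31, adjusted p = 5.14e-05), and Nr1h3, which encodes LXR alpha (-1.16 ± 0.29, adjusted p = 0.00203). In iCre 1 was higher and 2 lower, and with the block 4 were lower in each vector. The isoprenoid branch had 4 of 8 higher and 0 lower in each vector, and of 5 genes of SREBP processing 1 was higher and 2 lower in LacZ and 2 and 2 in iCre.

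With IL-1b 3 of the 8 LXR and oxysterol genes were higher and 1 lower in both vectors, where 11.1% of all tested genes were called higher and 8.13% lower in LacZ, and 8.88% and 6.84% in iCre. Ch25h, which makes 25-hydroxycholesterol, was higher by log2 3.28 ± 0.48 in LacZ (adjusted p = 1.62e-05), Cyp7b1, which degrades such oxysterols, by 3.54 ± 0.94 (adjusted p = 0.00798), while Cyp27a1 was lower by 2.07 ± 0.32 on the log2 scale. None of the 10 fatty acid synthesis genes was called under IL-1b by edgeR in LacZ, where 1 passed with DESeq2 and 1 had an unadjusted p under 0.05; with the block 3 were called higher.

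Between the vectors most synthesis enzymes had lower means in iCre, by less than the spread between numbers. Averaged over the 4 conditions 17 of 18 enzymes lay below 0 (median log2 -0.23, all tested genes 0.01) and the 3 efflux genes above 0 (0.11 to 0.24). The efflux genes were mixed within the 16 pairs of one condition and number. Abca1 was higher in iCre in 9 pairs, Abcg1 in 11 and Mylip in 7. With edgeR 0 of 27 members were called in the average or in any single condition; 1, Hsd17b7, had an unadjusted p under 0.05 in the average and 0 in the single conditions, and DESeq2 called 0. The background was 0.107% of tested genes called in the average and 0 genes in each condition. Idi1 had 4.17, 9.17, 2.39 and 19.6 CPM in LacZ SS and 1.62, 5.37, 1.33 and 12 CPM in iCre SS; with TGFb it had 48.8, 84.9, 24.8 and 62.7 CPM in LacZ and 21.5, 48, 16.2 and 40.5 CPM in iCre. In each of these 8 pairs of one number the iCre library was lower, and over the 4 conditions this held in 15 of 16 pairs, as for Cyp51. Idi1 and Cyp51 were the most one-sided of the 18 enzymes. The least were Acat2, Tm7sf2 and Ebp, each lower in iCre in 10 of 16 pairs, and the transporter Npc1 was higher in 11. The share of all tested genes with such counts was not determined. The averaged change of Idi1 was log2 -0.58 ± 0.42 (adjusted p = 0.84).

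**Figure D4:**
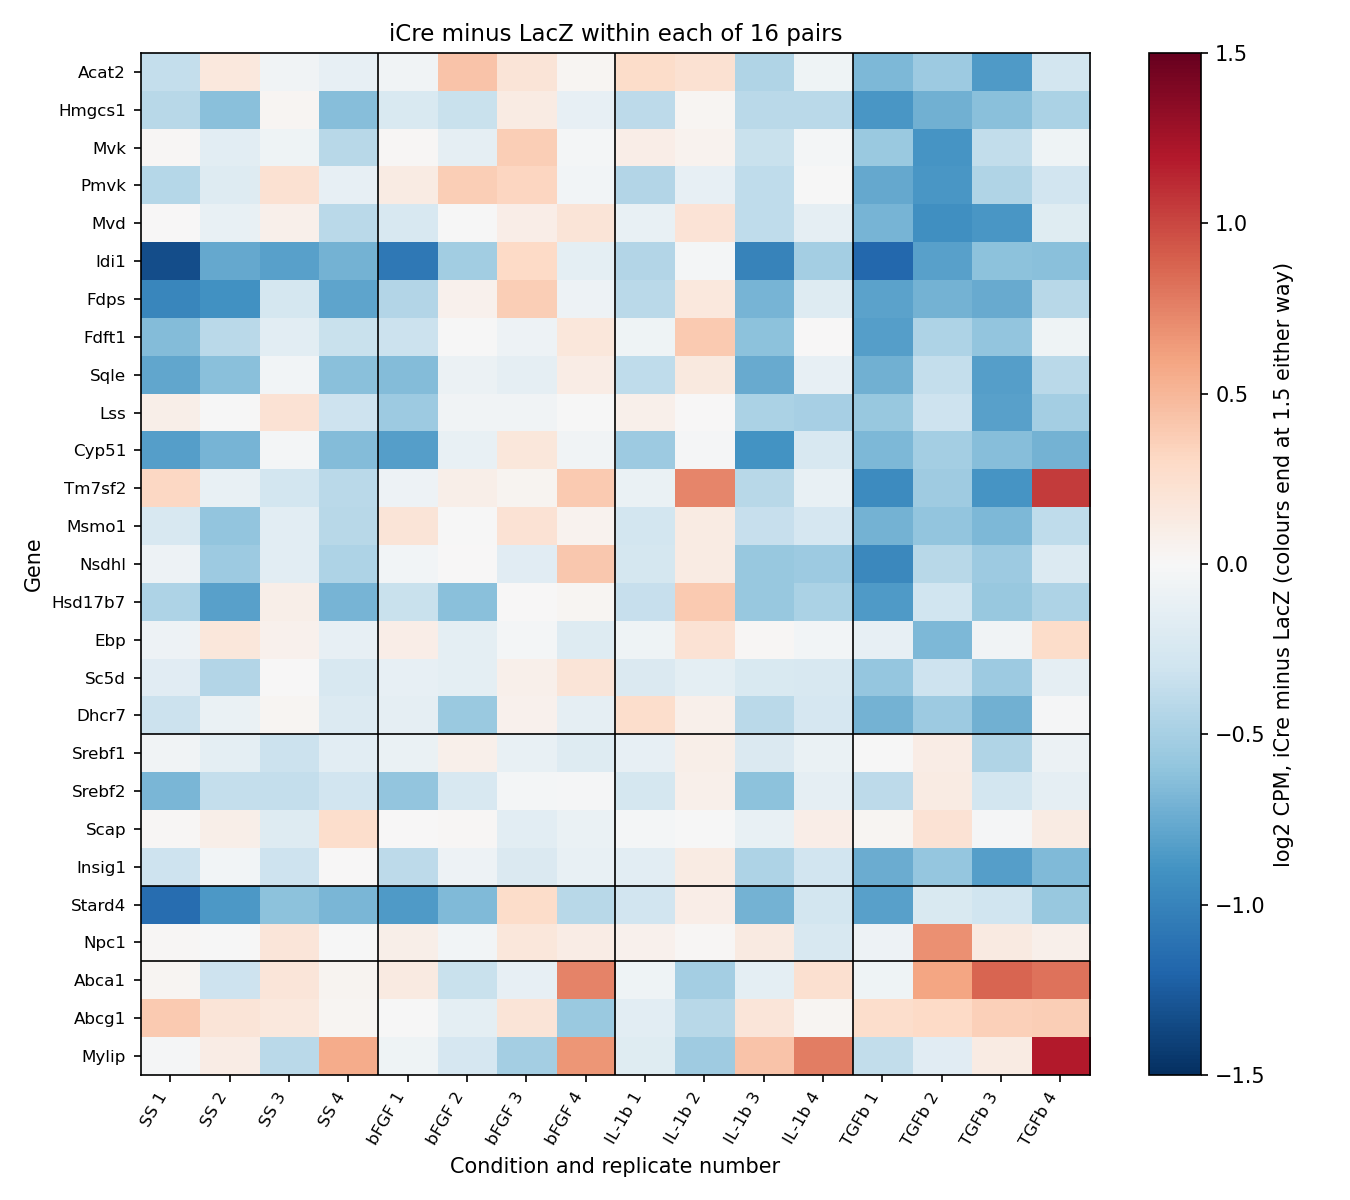
Difference of log2 CPM, iCre minus LacZ, of the 27 members (rows) in each of 16 pairs of libraries with the same condition and number (columns); blue is lower in iCre, red higher, and colours end at 1.5 either way. The 4 TGFb columns are blue for nearly all synthesis enzymes, while the bFGF columns are mixed.

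Comparisons within numbers changed the calls between vectors. With the number as a block 4 members were lower in iCre in the average, Fdps, Hsd17b7, Sc5d and Stard4, at a background of 1.72% called lower; Stard4 changed by log2 -0.49 ± 0.10 (adjusted p = 0.00803). With a block for each pair of one condition and number, 16 members were lower and 0 higher, where 3.21% of tested genes were called lower; they were 13 enzymes with Srebf2, Insig1 and Stard4. That fit treats 4 conditions of one number as separate pairs. When the counts of the 4 conditions were summed, so that each number gave 1 pair, 2 members were called lower, Hmgcs1 (log2 -0.49, adjusted p = 0.0499) and Cyp51 (log2 -0.53, adjusted p = 0.028), at a background of 0.0379% called lower. The count thus ran from 0 to 16 with the way in which numbers were handled.

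The median difference between vectors was -0.30 in SS, -0.14 with IL-1b, near 0 with bFGF and -0.50 with TGFb. With TGFb the enzymes were lower in iCre for 18, 18, 18 and 16 of 18 in numbers 1 to 4, with medians of log2 -0.72, -0.54, -0.63 and -0.28. In SS the counts were 14, 16, 10 and 18, with IL-1b 14, 4, 17 and 17, and with bFGF 14, 13, 5 and 9. The pair block called 10 members lower under TGFb, 9 of them enzymes, at a background of 0.107% lower; examples are Insig1 (log2 -0.70 ± 0.08, adjusted p = 0.00111), Msmo1 (-0.59 ± 0.08, adjusted p = 0.00498) and Hmgcs1 (-0.67 ± 0.10, adjusted p = 0.00762), while the fit without pairs gave an adjusted p of 1.00 for each. Abca1 was higher in iCre under TGFb in 3 of 4 pairs, with 52.1, 34.8, 91.7 and 97.8 CPM against 54.4, 22.9, 50.1 and 55.7 CPM (log2 0.59 ± 0.33, adjusted p = 1; pair block 0.56 ± 0.17, adjusted p = 0.223). Whether the response itself differed by vector was tested as an interaction. None of the 27 members passed for TGFb, IL-1b or bFGF with edgeR (0 at an unadjusted p under 0.05) or DESeq2. Of all 16760 tested genes 0 were called by edgeR in each, so the count says nothing particular to these members. Neither of these fits took the library number into account. For TGFb the enzymes' interaction had a median of log2 -0.14 and ran from -0.47 to 0.57, and Abca1 gave 0.61 ± 0.47.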

How the data were processed

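The authors deposited raw read counts per gene for 32 libraries, as whole numbers, with FastQC 0.10.1 and HTSeq 0.10.0 on mm10/GRCm38 per the submitters' processing notes. Which aligner, strand setting or annotation release was used is not given in the sources used here. Of 55414 gene IDs, 52081 were matched to symbols in a GENCODE annotation of GRCm38 and 3333 were not. No count column lacked a sample (0 columns).

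Counts were fitted with edgeR 4.0.16 in R 4.3.3: TMM scaling, a filter on low counts by group, 1 quasi-likelihood model of 8 group means over all 32 libraries, 17 two-sided contrasts, and Benjamini-Hochberg adjustment over all 16760 tested genes with a threshold of 0.05. Standard errors (SE) of log2 changes were derived from the test's F. The scripts were checked on simulated data. Alternatives were DESeq2 1.42.0, no filter, total counts without TMM, the library number as a block, a block for each pair of one condition and number, counts summed over the conditions, and leaving out single libraries or all 8 libraries of number 4. Libraries of the same number deviated together from their group means (correlations 0.153 to 0.857 over 40 pairs), so the numbers pair the libraries; the labels do not say what a number stands for. Libraries within a group differed beyond counting noise (lowest chi-square per degree of freedom 9.10 over 48 pairs). Python 3.11.15 with matplotlib 3.10.9 made the figures.

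All 27 members could be named. Of the other pathway lists at most the 3 genes with the smallest p per list and comparison were named, besides Pkm, Nos2, Spry4, Pmepa1 and cell type markers. Members and lists were chosen with earlier results of these data known.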

Additional observations from a re-analysis of the deposited data

Results flagged for a closer look

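Each member was checked in each of the 8 groups of 4 libraries for a library set apart from the other 3 by Dixon's criterion at the level of 0.05. This was met in 9 of 216 cases, where chance gives about 5% of cases. In 7 of the 9 the library was number 4. It was the highest in iCre SS for Mvd at 13.5 CPM (next 8.06), Nsdhl at 22.7 CPM (next 10.1) and Sc5d at 44.2 CPM (next 32.9). It was also the highest in LacZ ILB for Tm7sf2 at 15.6 CPM (next 3.46), in LacZ FGF for Npc1 at 90.5 CPM (next 72.4) and in iCre FGF for Mylip at 79.3 CPM (next 26.3). In LacZ FGF number 4 was the lowest for Srebf1 at 95.9 CPM (next 123). The others were Srebf1 in LacZ SS, where number 3 had 108 CPM (next 86.1), and Abca1 in LacZ TGFB, where number 2 had 22.9 CPM (next 50.1).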

How the results depend on the processing

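The 101 calls of single members were recomputed 1705 times: 1553 kept direction and call, 152 kept direction but missed the threshold, 0 reversed, and 25 calls were lost at least once. With the replicate block the members called became 16 (from 3) for IL-1b in LacZ, 17 (from 3) in iCre, 2 (from 0) for bFGF in LacZ, 2 (from 1) in iCre, 20 (from 4) for IL-1b against bFGF and 4 (from 0) for iCre against LacZ in the average; it ended no call of a member or other pathway gene between stimuli and, beside these counts and the values given in the report, changed 1 other call of a member between stimuli, that of Abcg1 in TGFb against bFGF. With a block for each pair the average gave 16 and the TGFb condition 10, and with summed counts the average gave 2. For bFGF in LacZ, DESeq2 and total counts gave 1 each and leaving out the number 4 libraries 1; for bFGF in iCre the last gave 2. IL-1b against bFGF gave 2 without the filter and 2 with total counts. Leaving out 1 library gave 18 to 24 for TGFb in LacZ (23 in full), 15 to 23 in iCre (22), 2 to 3 for IL-1b in each vector, 0 to 1 for bFGF in LacZ, 0 to 2 in iCre, 15 to 23 for TGFb against IL-1b (20), 25 throughout for TGFb against bFGF, and 2 to 7 for IL-1b against bFGF. For bFGF in iCre 0 came without FGF library 1, 2 or 3 or SS library 1, 2 or 4, and 2 without FGF library 4; in LacZ 1 came without FGF library 4 or SS library 3. For IL-1b against bFGF 7 came without iCre FGF library 4, and 2 without library 1 or 3 of FGF or 2 or 4 of ILB in either vector. The causes were not tested.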
